A study of Mus musculus with 3 samples.

Results

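The 8 genes described here encode interferon beta (Ifnb1), both chains of the type I interferon receptor (Ifnar1 and Ifnar2), both chains of the interferon gamma receptor (Ifngr1 and Ifngr2) and the Janus kinases that sit on those chains (Jak1, Jak2 and Tyk2). They were chosen by gene symbol, without use of their values but with earlier results of these data known, and are 8 of 55536 genes in the tables. The RNA came from the chromatin fraction of bone-marrow-derived macrophages of C57BL/6J mice, sequenced as 3 libraries after removal of ribosomal RNA. All 3 libraries belong to 1 group. The cells met Lipid A, the TLR4-binding portion of endotoxin, at 100 ng/ml for 12 h, were left without it for 12 h, and were then given 100 ng/ml again for 60 min. There was no untreated group here, so the values describe levels after the second dose and not a response to it. The starting RNA was 1000, 250 and 500 ng in replicates 1, 2 and 3. The labels number the libraries as biological replicates 1, 2 and 3, each as technical replicate 1. They give separate biosamples with the same donor entry and no sex or age, without stating whether animals or cultures were separate. Every p-value below therefore covers library-to-library spread. How much of that spread lies between animals or cultures is not known, and part of it may be technical.

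Interferon beta is secreted by cells that sense microbes and binds the IFNAR1 and IFNAR2 chains, which carry TYK2 and JAK1. Interferon gamma, made mainly by T and NK cells, binds IFNGR1 and IFNGR2, which carry JAK1 and JAK2. The kinases phosphorylate STAT proteins, which enter the nucleus and switch on interferon-stimulated genes. In macrophages TLR4 signals through TRIF to the kinase TBK1 and the factor IRF3, which together with NF-kB switches on Ifnb1. Chromatin RNA is enriched in transcripts that are still attached to their gene, many of them not fully spliced.

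Replicates 1, 2 and 3 held 12602702, 17222239 and 17042691 gene counts, and 3 counts, taken as the floor of detection, are 0.238, 0.174 and 0.176 CPM, which scales counts to the library total. All 10 macrophage markers were detected, and 0 of 8 neutrophil markers and 1 of 10 T and NK cell markers (Cd4) passed 3 counts in a library. Of 6 conventional dendritic cell markers 5 passed 3 counts in a library, and the 6 summed to 58, 64 and 60 counts. Replicate 2 stood apart. Its 11 fibroblast and stromal markers, collagen genes among them, summed to 45912 counts, against 3 and 114 in replicates 1 and 3, and Col1a1, Col1a2 and Col3a1 were at 0 in replicate 1. Whether this RNA contributed to the members' values in replicate 2 was not tested. In bulk RNA, fewer cells of a type and less RNA per cell cannot be told apart.

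The promoters are shown first, because IRF cores and TATA boxes stood in the ligand gene alone among the members. The promoter sequences are from RefSeq on GRCm38.p6, in windows of 250 bases before to 50 after the RefSeq start, and all 8 members matched. Motifs were searched on both strands in the 250 bases before the start of 32851 windows, and positions count back from that start. Capitals mark the IRF core AANNGAAA, the general NF-kB consensus of 10 bases and the TATA box TATAAA in Ifnb1 (chr4:88522865-88522964, − strand), the GC box GGGCGG in Ifnar1 (chr16:91485065-91485214, + strand), the GC box and the NF-kB motif, there on the opposite strand, in Ifngr2 (chr16:91546959-91547058, + strand), and the CCAAT box, the cAMP response element TGACGTCA and the GC box in Jak1 (chr4:101265224-101265363, − strand).
Ifnb1: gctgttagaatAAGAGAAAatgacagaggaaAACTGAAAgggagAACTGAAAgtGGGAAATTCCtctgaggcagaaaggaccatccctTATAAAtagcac
Ifnar1: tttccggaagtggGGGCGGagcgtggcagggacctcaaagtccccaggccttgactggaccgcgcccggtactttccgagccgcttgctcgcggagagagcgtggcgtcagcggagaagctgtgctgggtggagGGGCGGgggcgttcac
Ifngr2: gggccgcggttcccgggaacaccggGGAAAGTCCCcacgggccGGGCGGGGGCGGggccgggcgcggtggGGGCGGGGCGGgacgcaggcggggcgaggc
Jak1: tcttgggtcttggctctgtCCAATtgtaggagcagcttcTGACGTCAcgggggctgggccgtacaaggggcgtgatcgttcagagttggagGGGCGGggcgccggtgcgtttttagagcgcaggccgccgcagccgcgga

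The Ifnb1 window held 3 IRF cores, the first starting at −159, which 0.849% of all windows matched or exceeded, and 1 NF-kB motif starting at −116, which 7.25% held. It also held 2 TATA boxes (2.1% with at least 2), 1 of them outside the stretch shown, and a single CpG. The other 7 members had no IRF core or TATA box and 11 to 37 CpG, and of them only Ifngr2 held the NF-kB motif, at −75. GC boxes were found in 6 of those 7, all but Ifnar2, against 32.7% of all windows. Ifngr2 had 4 (4.09% with at least 4), of which the last 2 share 1 base. Jak1 alone of the members held the cAMP response element (1.55% of windows). Ifnar2 alone held the STAT motif TTCNNNGAA (7.02%). CCAAT boxes stood in Ifngr1, Ifngr2, Jak1 and Tyk2 (33.8% of windows). None held the AP-1 motif TGACTCA (4.46%). These matches describe letters in the windows and not binding.

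Levels are given as TPM, which divides counts by length and scales them to the library, so that genes can be compared within a library. In the RSEM layout Ifnb1 was the lowest member on average and Ifnar1 the highest, and the mean levels ran in the order Ifnar1, Tyk2, Jak2, Ifngr1, Ifnar2, Jak1, Ifngr2 and Ifnb1. Ifnb1 was also lowest by kallisto and in CPM, but Ifnar1 was not highest there. By kallisto Jak1 averaged 108.8, Jak2 105.2, Ifngr1 98.3, Tyk2 88.2 and Ifnar1 81.8 TPM, and with protein-coding isoforms alone Ifnar1 averaged 39.1 TPM, below Jak2 at 78.5. Of the neighbours in the RSEM order only Jak1 and Ifngr2 had ranges that did not overlap. Their difference was 2.21 ± 0.39 in log2(TPM + 1), in 3 of 3 libraries (exact two-sided sign-flip p = 0.25, adjusted over 7 neighbours 0.875). With 3 libraries 0.25 is the smallest p this test can give, so no such difference could pass 0.05. Of the 8 members, 6 reached 10 TPM in each library, against 16.7% of 22028 protein-coding genes and 23.2% of those with a count.

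**Figure D1:**
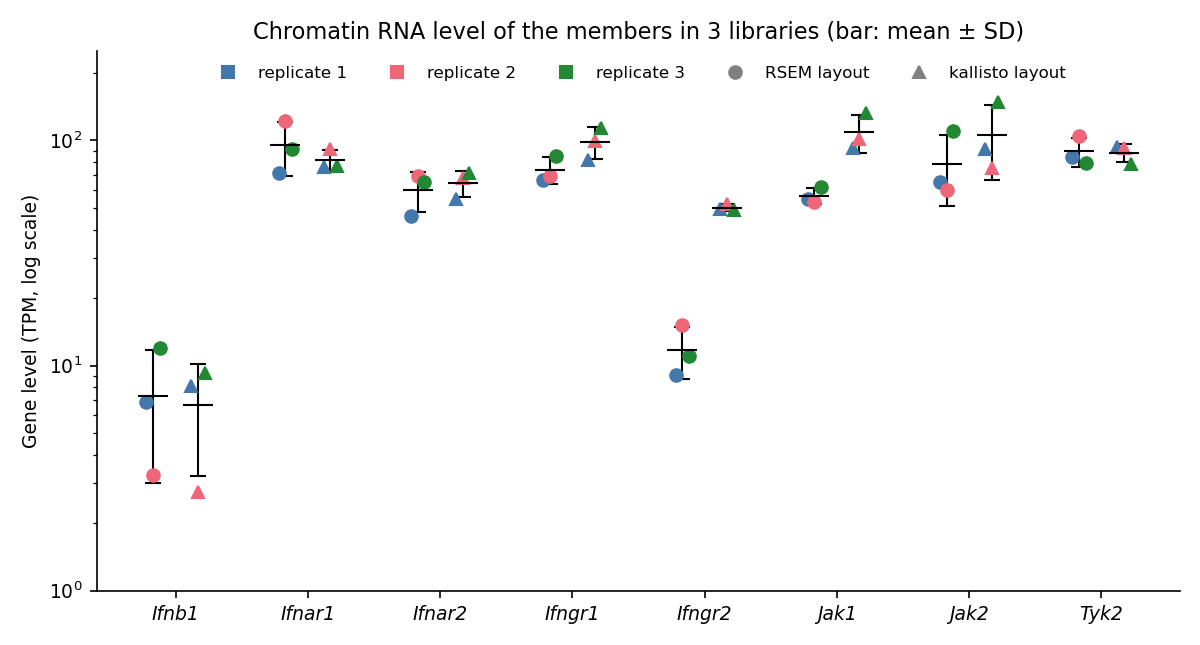
Level of the 8 genes (TPM, log axis) in replicates 1 (blue), 2 (red) and 3 (green), from the tables in the RSEM layout (circles) and the kallisto layout (triangles), with mean ± SD. Ifnb1 is lowest in replicate 2 in both, and Ifngr2 averages 11.7 TPM in the circles and 50.2 TPM in the triangles.

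Ifnb1, the ligand gene (ENSMUSG00000048806.4, chromosome 4, 88522025 to 88522774, − strand, mm10), is a single exon of 750 bases. It had 60, 21 and 85 counts in replicates 1, 2 and 3. These are 4.76, 1.22 and 4.99 CPM, with exact 95% Poisson intervals of 3.63 to 6.13, 0.755 to 1.86 and 3.98 to 6.17, which cover counting error only. Replicate 2 lay below the others beyond counting error, and replicates 1 and 3 overlapped. In TPM the values were 6.87, 3.28 and 11.9, and replicates 1 and 3 drew apart. The authors' credibility bounds on TPM, which surround the posterior mean, were 4.99 to 8.26, 1.92 to 4.50 and 8.79 to 13.4 and did not overlap. The kallisto tables gave 8.10, 2.75 and 9.24 TPM. Replicate 2 was the lowest library on each of these scales, and it was the library with 250 ng of starting RNA and with the stromal markers. By TPM, 6.32% of 10011 protein-coding genes averaging at least 1 TPM were lowest in replicate 2 and 77.1% highest. Of the members, 3 were lowest there (Ifnb1, Jak1 and Jak2) and 4 highest.

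Of 20 other interferon genes, 1 passed 3 counts in a library. This was Ifnk, the interferon kappa gene, with 11, 19 and 35 counts and 1.15, 2.67 and 4.42 TPM. Ifnk lies within Mob3b on the opposite strand, whose counts were 19, 20 and 43, and since no source used here gives a strand setting the reads of the overlap cannot be assigned with certainty. The other 19 never passed 3 counts and are Ifna1, Ifna2, Ifna4, Ifna5, Ifna6, Ifna7, Ifna9, Ifna11, Ifna12, Ifna13, Ifna14, Ifna15, Ifna16, Ifnab, Ifne, Ifnz, Ifng, Ifnl2 and Ifnl3. They include Ifng, the ligand of the receptor encoded by Ifngr1 and Ifngr2, with 0 counts in all 3 libraries. The nearest interferon genes to Ifnb1, Ifna15 and Ifna14, also had 0 counts. These are counts in the RSEM layout, and kallisto gave Ifna16 0.64, 1.20 and 1.67 TPM. Of the markers of plasmacytoid dendritic cells, which make much type I interferon, Siglech had 1, 1 and 0 counts and Klk1 and Pacsin1 had none, whereas Tcf4 had 98.7, 95.3 and 103 TPM and Il3ra 27.1, 18.3 and 17.7 TPM.

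The genes whose products lead to Ifnb1 were all detected, and 10 of 13 reached 10 TPM in each library. The kinase gene Ikbke was highest, with 1584, 1412 and 1346 TPM. Irf7, which encodes an interferon regulatory factor, had 444, 347 and 293 TPM, and Nfkb1, which encodes the p105 precursor of NF-kB p50, 287, 266 and 496 TPM. The receptor gene Tlr4 was lowest, with 5.01, 11.0 and 7.23 TPM.

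The 5 protein-coding genes whose log2(TPM + 1), centred over the 3 libraries, lay nearest to that of Ifnb1 were Myo10 (Euclidean distance 0.10), Lrrc63 (0.13), 9130230L23Rik (0.19), Hivep1 (0.24) and Il6 (0.25), out of 10009 compared. Myo10, a myosin gene, had 34.4, 19.9 and 57.3 TPM. Il6, the interleukin-6 gene, had 12.5, 5.07 and 16.7 TPM. With 3 libraries that share 1 treatment, likeness of this kind is a description.

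The receptor chains of type I interferon are encoded by neighbouring genes on chromosome 16. Ifnar1 (ENSMUSG00000022967.13, 91485238 to 91507441, + strand) had 71.4, 121 and 91.8 TPM in replicates 1, 2 and 3, from 2985, 4450 and 3533 counts. Ifnar2 (ENSMUSG00000022971.18, 91372783 to 91405589, + strand) had 46.3, 69.3 and 65.0 TPM from 943, 1208 and 1344 counts. Ifnar1 was above Ifnar2 in 3 of 3 libraries, with ratios of 1.54, 1.75 and 1.41 and a difference of 0.64 ± 0.16 in log2(TPM + 1) (exact sign-flip p = 0.25, adjusted over 5 pairs 0.313). With protein-coding isoforms alone the difference was −0.65, so the order of the chains turned with the isoforms counted. All 5 isoforms of Ifnar2 are annotated as protein coding, so this setting took RNA from Ifnar1 only. The reference coding isoform Ifnar1-201, with 24.1, 53.9 and 36.7 TPM, was above that of Ifnar2, Ifnar2-201, with 16.2, 24.7 and 26.5 TPM. Replicate 2 was highest for both chains by TPM.

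Between them lies Il10rb, a chain of the interleukin-10 receptor of the same receptor class, with 84.2, 94.6 and 119.6 TPM. It starts 575 bases after the end of Ifnar2. Gm21970, which overlaps both genes, was listed at 0. A930006K02Rik upstream of Ifnar1 had 0.78, 1.32 and 1.29 TPM and Tmem50b beyond Ifngr2 0.58, 1.95 and 1.34 TPM. Of 8 other chains of this receptor class, 4 were detected. Il10ra had 83.7, 81.3 and 83.0 TPM, Il20rb 7.40, 7.85 and 6.51 TPM, and F3, the tissue factor gene, 0.20, 3.33 and 0.35 TPM with 71 of its counts in replicate 2, the library with the stromal markers. Ifnlr1, Il20ra, Il22ra1 and Il22ra2 never passed 3 counts in the RSEM layout. Ifnlr1, the specific chain for lambda interferons, was thus not detected there at this depth, while kallisto gave it 0.31, 1.18 and 1.77 TPM.

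The chains of the interferon gamma receptor differed by more than the other pairs in TPM over all isoforms. This ranking did not hold in CPM, where Ifnar1 minus Ifnar2 was 1.63 and Ifngr1 minus Ifngr2 0.91 on the log2 scale, or with protein-coding isoforms alone, where Jak1 minus Jak2 was −1.14 and Ifngr1 minus Ifngr2 1.13. Ifngr1 (ENSMUSG00000020009.13, chromosome 10, 19591949 to 19610229, + strand), which binds the ligand, had 66.6, 69.6 and 85.4 TPM from 1048, 902 and 1245 counts. Ifngr2 (ENSMUSG00000022965.8, chromosome 16, 91547072 to 91565623, + strand), needed for signalling, had 9.09, 15.1 and 11.0 TPM from 470, 689 and 525 counts. The groups of values did not overlap, and the difference was 2.57 ± 0.38 in log2(TPM + 1), in 3 of 3 libraries (exact sign-flip p = 0.25, adjusted 0.313). The size of this gap rested on the quantification. Ifngr1 over Ifngr2 was 7.32, 4.62 and 7.74 with RSEM-layout values, while kallisto values put it at 1.66, 1.90 and 2.33 and gave Ifngr2 49.4, 52.3 and 48.9 TPM. The extra RNA lay in Ifngr2-202, an isoform of 534 bases annotated for nonsense-mediated decay whose bases all lie within exons of the coding isoform. It was listed at 0 in the RSEM layout and had 36.9, 34.9 and 33.4 TPM from kallisto, whereas the coding isoform Ifngr2-201 had 9.09, 15.1 and 9.94 TPM against 7.58, 12.4 and 9.74 TPM from kallisto. Ifngr2-203, a processed transcript, had 0, 0 and 1.09 TPM against 4.94, 5.05 and 5.77 TPM from kallisto.

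**Figure D2:**
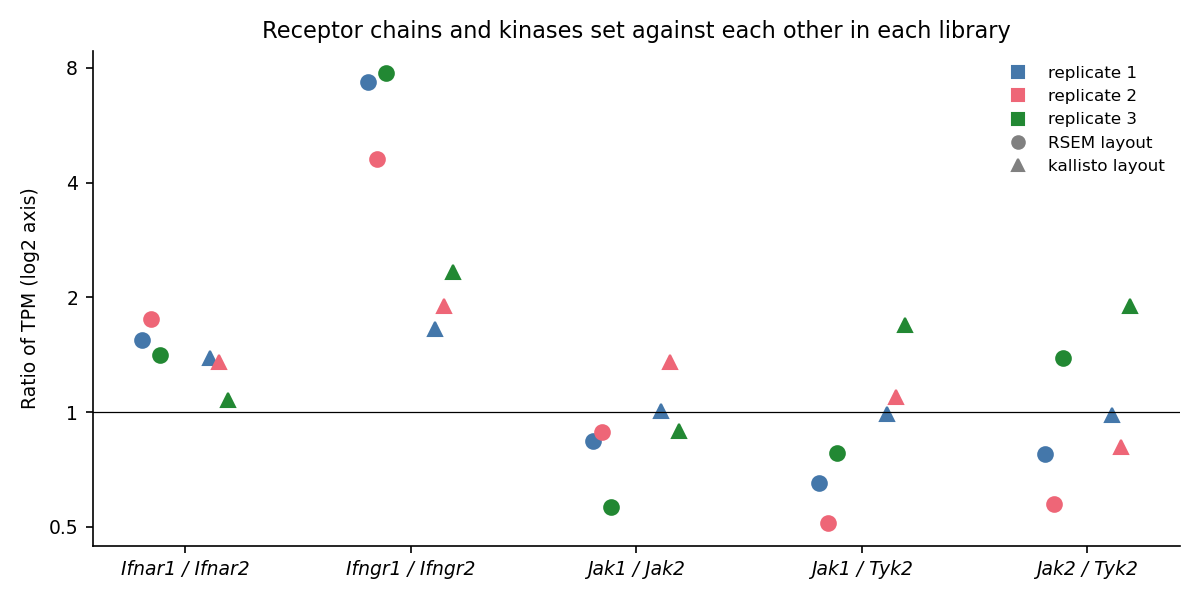
Ratio of TPM between members in each library (log2 axis, line at 1), from the RSEM layout (circles) and the kallisto layout (triangles). Ifngr1 over Ifngr2 lies between 4.62 and 7.74 in the circles and between 1.66 and 2.33 in the triangles. In the circles Jak1 over Jak2 and Jak1 over Tyk2 lie below the line, and Jak2 over Tyk2 crosses it. In the triangles each kinase ratio crosses the line.

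The kinase genes Jak1, Jak2 and Tyk2 averaged 56.8, 78.5 and 89.4 TPM over all isoforms. On the log2 scale Jak1 minus Jak2 was −0.87 in CPM and −1.14 with protein-coding isoforms alone. Jak1 (ENSMUSG00000028530.14, chromosome 4, 101152367 to 101265282, − strand), shared by both receptors, had 55.0, 53.5 and 62.0 TPM. Jak2 (ENSMUSG00000024789.13, chromosome 19, 29251828 to 29313080, + strand), of the interferon gamma receptor, had 65.3, 60.2 and 109.9 TPM, highest in replicate 3. Tyk2 (ENSMUSG00000032175.11, chromosome 9, 21104068 to 21131243, − strand), of the type I receptor, had 84.2, 104.5 and 79.4 TPM, highest in replicate 2. Jak1 lay below Tyk2 in 3 of 3 libraries, by −0.64 ± 0.30 in log2(TPM + 1), and below Jak2 by −0.41 ± 0.35 (exact sign-flip p = 0.25 each, adjusted 0.313). Jak2 and Tyk2 overlapped, with −0.23 ± 0.64 and Jak2 higher in 1 of 3 (exact p = 0.75). From kallisto all 3 differences changed sign, to 0.29 for Jak1 minus Tyk2, 0.09 for Jak1 minus Jak2 and 0.20 for Jak2 minus Tyk2. Kallisto gave Jak1 92.2, 102 and 133 TPM. Part of that stood in Jak1-206, a short coding model of 421 bases with 16.1, 33.2 and 50.7 TPM from kallisto but 0.40, 2.46 and 1.87 TPM in the other table.

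Around Jak1, Raver2 overlaps its 3′ end on the other strand and had 1.56, 1.75 and 1.74 TPM. The pseudogene Gm12785 inside Jak1 was listed at 2.14, 19.6 and 0 TPM. These values came from 1, 2 and 0 counts, so it was not detected above 3 counts. The antisense gene 1700084C06Rik overlaps Tyk2 and had 7.75, 0 and 0.84 TPM, and without a stated strand setting the reads of the overlap cannot be assigned. Cdc37, which encodes a kinase cochaperone and lies 1979 bases from Tyk2, had 30.7, 30.7 and 21.4 TPM. Farther from Tyk2, Raver1 had 12.6, 21.9 and 18.2 TPM, Fdx1l 3.70, 9.60 and 6.19 TPM, Gm38431 2.84, 1.30 and 2.06 TPM and Pde4a 2.10, 3.29 and 2.55 TPM. Plgrkt near Jak2 had 164, 196 and 229 TPM.

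Counts scaled by the TMM method, which corrects for library composition, gave another view of the spread between libraries. Ifnar1 had 235.8, 233.1 and 235.3 scaled CPM, a coefficient of variation (CV) of 0.598%, at percentile 0 of the CVs of 531 genes within 1.5-fold of its level. Ifngr2 had 37.1, 36.1 and 35.0 (CV 3.00%, percentile 1.77 of 1583 like genes). By TPM both genes were highest in replicate 2, and their CVs were larger than on the TMM scale. The CV of TPM was 26.5% for Ifnar1 (percentile 66.3 of 649 like genes) and 26.0% for Ifngr2 (percentile 30.4 of 1938). Jak2 had 316, 183 and 455 (CV 42.7%, percentile 93.5 of 386) and Ifnb1 4.74, 1.10 and 5.66 (CV 62.9%, percentile 88.3 of 1666). Ifngr1 had 82.8, 47.3 and 82.9, Jak1 180.3, 121 and 197, Ifnar2 74.5, 63.3 and 89.5, and Tyk2 307, 218 and 219. On this scale all members but Ifngr2 were lowest in replicate 2, Ifnar1 and Tyk2 by a small margin, beside 31.7% of 10178 protein-coding genes tested.

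**Figure D3:**
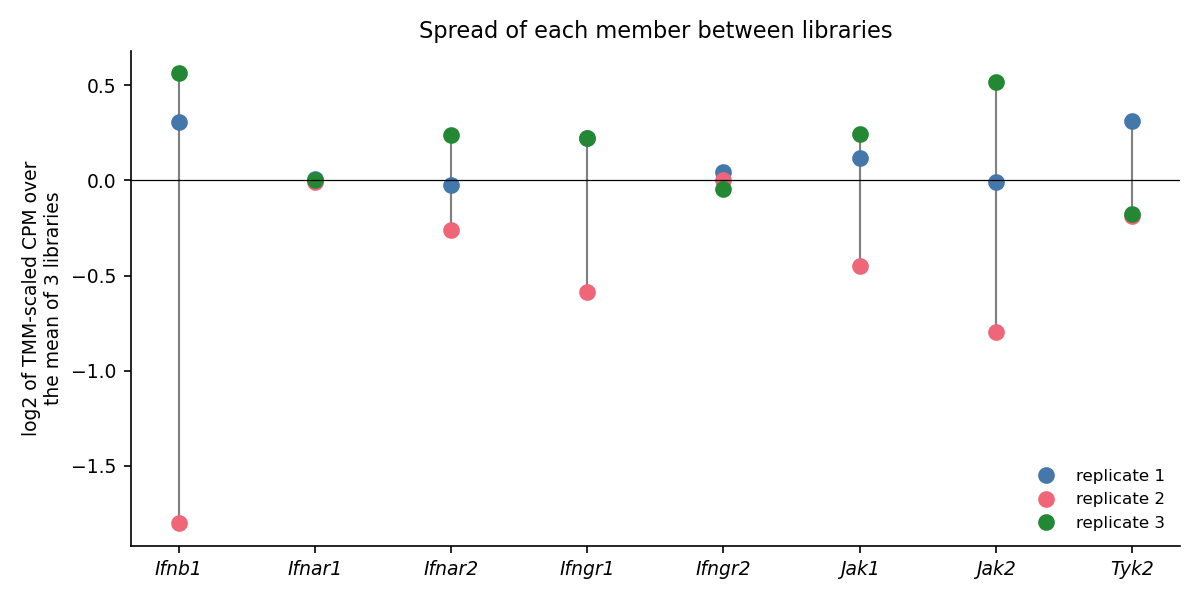
Log2 of TMM-scaled CPM over the mean of 3 libraries for each gene, with 1 point per replicate. Ifnar1 and Ifngr2 lie within a narrow band, whereas replicate 2 of Ifnb1 lies farthest below 0.

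A slope on the log2 of starting RNA was fitted to the counts with edgeR, because that is the labelled difference between libraries. Over all genes 0.482% had a positive and 0.467% a negative slope at an adjusted p under 0.05. Of the 8 members 0 passed by edgeR or by DESeq2, and 1 (Ifnb1) had an unadjusted edgeR p under 0.05, as did 9.68% of all genes tested. Its slope was 0.99 log2 per doubling of the starting RNA (edgeR adjusted p = 0.482), and without replicate 2 it was −0.21, a value with no test. The starting quantity, the stromal RNA of replicate 2 and other differences between these 3 libraries cannot be told apart.

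Isoforms that hold intron sequence took part of the RNA of Ifnar1, Ifnar2, Ifngr1, Tyk2 and Jak1 in each library, and how much depended on the unit. These shares were not computed for other genes. Isoforms with at least 50 bases in introns of the reference coding isoform held 58.9 ± 4.82% of the TPM of Ifnar1, 56.8 ± 2.42% of Ifnar2, 59.4 ± 2.47% of Ifngr1, 54.2 ± 3.12% of Tyk2 and 42.6 ± 7.42% of Jak1 (SD, n = 3). From kallisto these were 64.6, 64.2, 64.6, 55.9 and 68.6%. TPM gives short models more weight than counts do. As shares of expected counts, a unit chosen after seeing the data, the same isoforms held 46.7 ± 6.75% of Ifnar1, 17.4 ± 0.129% of Ifnar2, 26.6 ± 3.71% of Ifngr1, 31.5 ± 2.81% of Tyk2 and 15.0 ± 3.14% of Jak1. Ifngr2 averaged 3.29% of TPM, 10.5% from kallisto and 2.23% of counts. Its share of TPM was 0, 0 and 9.88% in replicates 1, 2 and 3. It came from Ifngr2-203, with 59 of 2516 bases in such introns. Jak2, whose 4 annotated isoforms hold no such intron bases, and the intronless Ifnb1 had 0 by construction. Such a share depends on which isoforms are annotated, and 0 does not show complete splicing. It also counts each such isoform whole, so it is not a share of unspliced RNA. In Ifnar2 the isoforms were Ifnar2-203 and Ifnar2-205, both annotated as protein coding, with 11.6% and 40.4% of their bases in such introns. In Ifnar1 they included Ifnar1-203, with 1.78%.

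Bases at the boundary show where such isoforms run on past an exon. Each stretch has 20 exon bases and the first 30 intron bases from the GENCODE M21 transcripts (GRCm38), with the first 6 intron bases in capitals. They lie at chr16:91489800-91489849 (+ strand), chr10:19597511-19597560 (+), chr4:101181750-101181799 (−) and chr9:21128530-21128579 (−) in the order shown.
Ifnar1-205: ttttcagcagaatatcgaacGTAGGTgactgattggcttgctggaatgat
Ifngr1-202: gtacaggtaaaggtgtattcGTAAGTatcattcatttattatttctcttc
Jak1-205: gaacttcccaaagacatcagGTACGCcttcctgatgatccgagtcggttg
Tyk2-204: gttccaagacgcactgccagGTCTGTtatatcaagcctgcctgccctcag

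Each intron starts with GT, and each of these isoforms ends inside the intron. Ifnar1-205 reads 1970 of the 2811 bases after exon 2, Ifngr1-202 321 of 3789 after exon 2, Jak1-205 761 of 1985 after exon 6 and Tyk2-204 1120 of 1216 after exon 2.

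**Figure D4:**
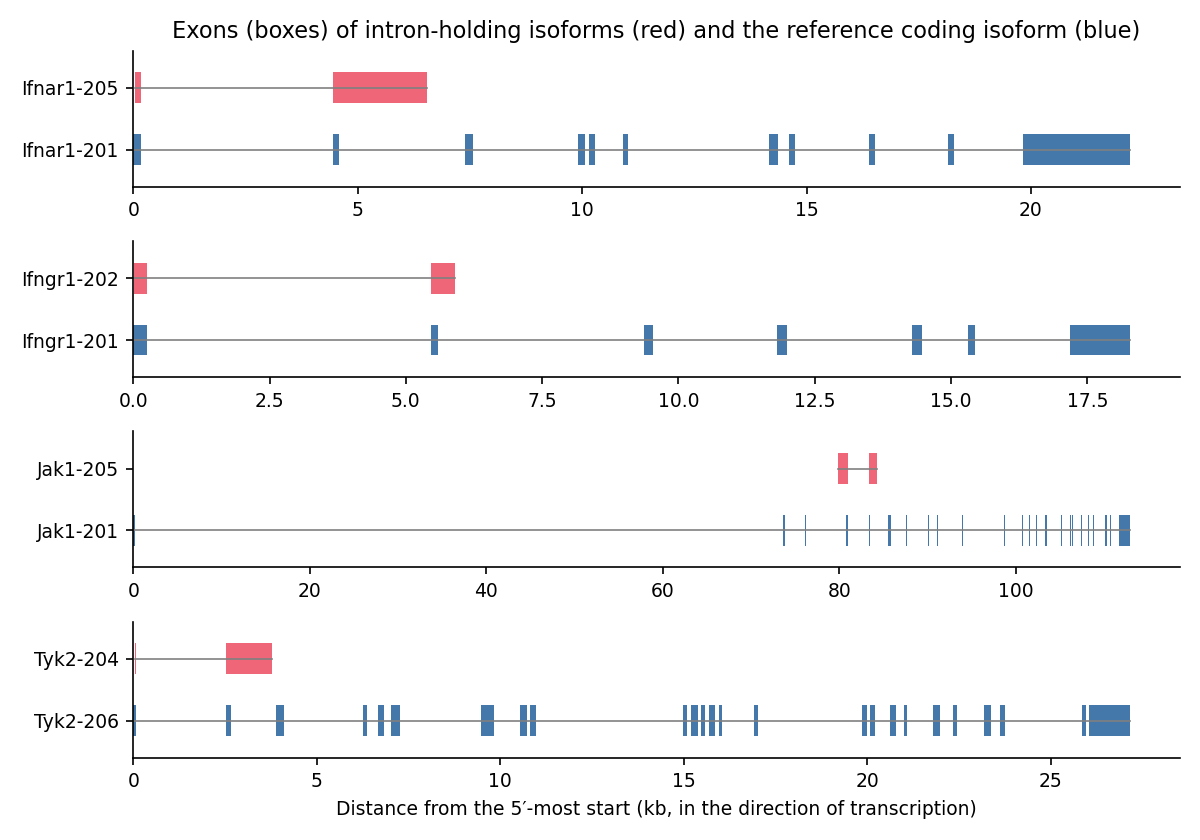
Exons (boxes) of intron-holding isoforms (red) above the reference coding isoform (blue), by distance in kb from the 5′-most start, in the direction of transcription. The red models cover a small part of each gene and end in an intron.

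Ifnar1-205, annotated as a retained intron, was the highest isoform of Ifnar1 in every library, with 32.3, 60.0 and 49.2 TPM in replicates 1, 2 and 3. The coding Ifnar1-201 had 24.1, 53.9 and 36.7 TPM, and Ifnar1-203, annotated for nonsense-mediated decay, 13.4, 5.84 and 4.63 TPM, highest in replicate 1. Ifnar1-206 reached 5.74 TPM in replicate 1 from kallisto and was listed at 0 in the RSEM layout. Ifnar2 spread over Ifnar2-201 with 16.2, 24.7 and 26.5 TPM, Ifnar2-205 with 18.5, 26.4 and 19.8 TPM and Ifnar2-203 with 7.41, 14.9 and 15.9 TPM. Ifnar2-203 has a coding sequence of 744 bases, against 1539 in Ifnar2-201, and kallisto put it first with 17.9, 27.4 and 26.8 TPM. Soluble forms of IFNAR2 are known in mice, but which protein these models give was not measured. Ifnar2-202 and Ifnar2-204 had 2.01 ± 0.676 and 1.42 ± 0.627 TPM.

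Ifngr1-202, a retained-intron isoform, had 26.5, 28.3 and 33.8 TPM, beside 23.1, 23.2 and 30.7 TPM for the coding Ifngr1-201. Ifngr1-204, also retained-intron, had 13.1, 11.1 and 11.2 TPM. Ifngr1-203 and Ifngr1-205 had 4.21 ± 1.49 and 2.38 ± 0.988 TPM, and kallisto gave them 15.9 and 17.7 TPM on average, with Ifngr1-206 at 7.26. Jak1-201, the full-length coding isoform, had 26.9, 32.3 and 39.0 TPM and the processed transcript Jak1-205 11.6, 12.3 and 12.6 TPM. Jak1-207, Jak1-203 and Jak1-204 averaged 5.49, 2.63 and 2.26 TPM, and Jak1-202 and Jak1-208 were listed at 0 with 14.1 and 2.57 TPM from kallisto.

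Jak2-202 and Jak2-204 encode 3396 bases of coding sequence each, and their order differed between tables. Jak2-202 had 24.5, 36.5 and 66.5 TPM and Jak2-204 40.2, 23.1 and 42.7 TPM, whereas kallisto put Jak2-204 above Jak2-202 in all 3 libraries. Jak2-203 had at most 0.78 TPM, against 16.5, 11.3 and 27.3 TPM from kallisto. Tyk2-203, a coding isoform, had 32.6, 42.2 and 31.2 TPM, and the short coding model Tyk2-205 22.9, 20.9 and 15.9 TPM. The retained-intron isoforms Tyk2-204 and Tyk2-202 had 13.4, 25.7 and 21.8 TPM and 7.72, 8.38 and 8.20 TPM, and Tyk2-201 had 7.69, 7.43 and 2.31 TPM.

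**Figure D5:**
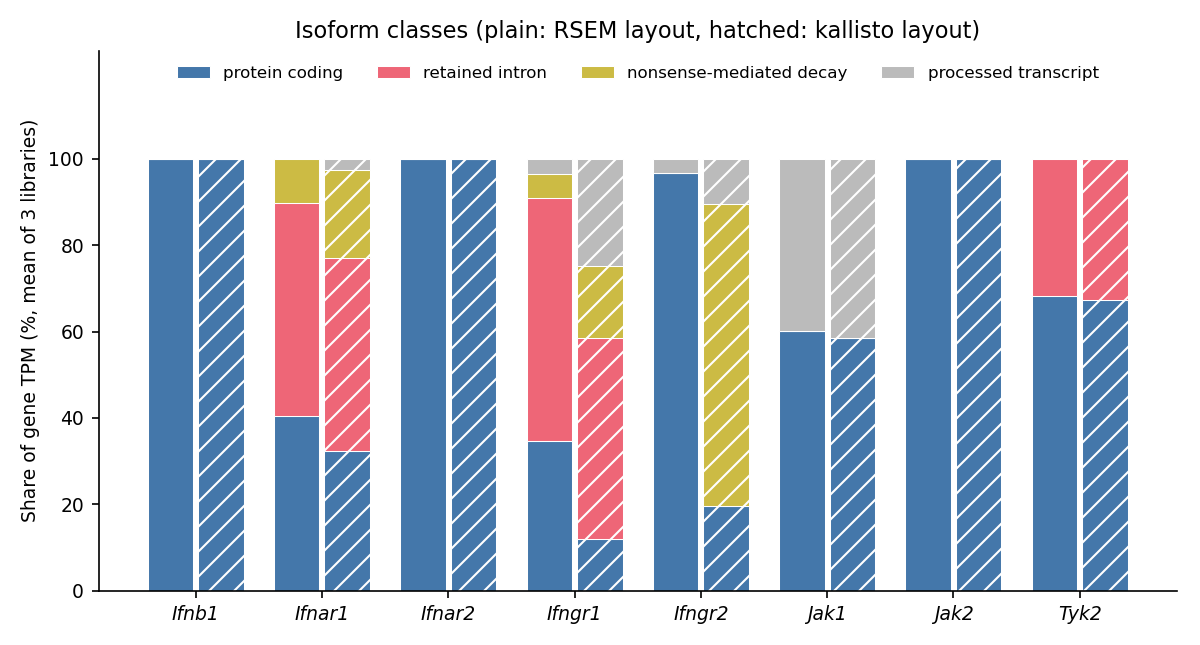
Share of each gene's TPM by annotated isoform class, as the mean of 3 libraries, in the RSEM layout (plain) and the kallisto layout (hatched). Retained-intron isoforms hold 49.4% of Ifnar1 and 56.3% of Ifngr1 in the plain bars, and the decay class holds 69.9% of Ifngr2 in the hatched bar and 0 in the plain one.

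The log2 ratio of retained-intron to protein-coding TPM was tested with limma over 4311 genes that have both classes. It called 24.3% of them higher in the retained-intron class and 25.6% higher in the protein-coding class, at an adjusted p under 0.05. Of the members 3 could be tested, and 1 was called in each direction. Ifngr1 was higher in the retained-intron class, with a log2 ratio of 0.70 (SE 0.20, limma adjusted p = 0.0426) and 0.78, 0.76 and 0.55 in replicates 1, 2 and 3. Tyk2 was higher in the protein-coding class, with −1.11 (SE 0.25, adjusted p = 0.0242) and −1.57, −1.05 and −0.72. Ifnar1 did not pass, with 0.29 (SE 0.20, adjusted p = 0.268). Both calls were lost without any 1 library, where adjusted p ran from 0.111 to 0.143 for Ifngr1 and from 0.0534 to 0.0734 for Tyk2. With expected counts, which favour long isoforms, the Ifngr1 ratio was −1.30 (limma adjusted p = 0.0067). The median over the 4311 genes was then −1.20, and Ifngr1 stood at percentile 48.2.

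Of the genes listed as signal carriers downstream of the receptors, 6 of 6 reached 10 TPM in each library. Irf1, which encodes a transcription factor of the interferon response, had 721, 596 and 536 TPM, and Stat2, which encodes a signal carrier of the type I receptor, had 608, 485 and 342 TPM. Jak3, in that list although it is the kinase of the common gamma chain and not of these receptors, was lowest with 18.0, 35.1 and 20.8 TPM. Of 12 genes whose products restrain the receptors and kinases, 12 were detected and 9 reached 10 TPM in each library. Ptprc, which encodes the phosphatase CD45, had 621, 775 and 883 TPM, Socs3, a feedback inhibitor, 109 ± 20.5 TPM (SD, n = 3) and the ubiquitin ligase gene Cbl 75.7, 111 and 83.0 TPM. Socs1, which encodes an inhibitor of JAK kinases, was lowest on average with 1.27, 2.40 and 1.78 TPM, beside 0.74, 1.31 and 3.97 TPM for Cish. Socs1 thus stood below each of the 3 kinase genes in every library.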

How the data were processed

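The members and gene lists were chosen with earlier results of these data known. Per the labels and file headers, the values were made on mm10 with GENCODE M21; no source used here gives the aligner or the strand setting. The authors deposited expected counts and TPM per gene and isoform in the RSEM layout, with TPM credibility bounds (a signal that is never negative), and estimated counts and TPM per isoform in the kallisto layout, which were summed per gene. Levels are the deposited TPM as mean ± SD. Pairs were compared by exact sign flips of log2(TPM + 1). Isoform classes were tested with limma 3.58.1 on log2 TPM ratios (pseudocount 0.1, summed mean TPM at least 5), and slopes with edgeR 4.0.16 on rounded expected counts (TMM, filterByExpr), with DESeq2 1.42.0 as an alternative, all in R 4.3.3 with Benjamini-Hochberg adjustment over all genes. The NF-kB motif was first searched as the exact letters found in Ifnb1 and was widened to the general consensus after its matches had been seen, which added Ifngr2 and raised the share of all windows that hold it. The scripts were tested on simulated data. Named were all members, their isoforms averaging at least 1 TPM in either table, genes within 50 kb of a member averaging at least 1 TPM, the 3 highest, the lowest and the undetected genes of each list, and the 5 genes nearest to Ifnb1. The values of 1 gene that this rule names are not reported here. A gene was called detected above 3 expected counts in a library, in the RSEM layout alone. Kallisto gave TPM to some genes not detected by this rule. Among the cell markers, Cd3d had 9.27, 15.7 and 18.3 TPM and Cxcr2 3.95, 4.22 and 4.75 TPM from kallisto.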

Additional observations from a re-analysis of the deposited data

How the results depend on the processing

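No paired analysis was possible because all 3 libraries belong to 1 group. Over 7 alternatives on a TPM scale the log2 difference ran from −0.65 to 0.71 for Ifnar1 minus Ifnar2 and from 0.94 to 2.79 for Ifngr1 minus Ifngr2, and in CPM these were 1.63 and 0.91. From kallisto, Jak1 minus Jak2 was 0.091, Jak1 minus Tyk2 0.29, Jak2 minus Tyk2 0.20, Ifnar1 minus Tyk2 −0.11, Tyk2 minus Jak2 −0.20 and Ifnar2 minus Jak1 −0.73. In CPM, Jak2 minus Tyk2 was 0.28, Tyk2 minus Jak2 −0.28, Ifnar1 minus Tyk2 −0.059, Ifngr1 minus Ifnar2 −0.12 and Ifnar2 minus Jak1 −1.11. With protein-coding isoforms only, Ifnar1 minus Ifnar2 was −0.65, Jak2 minus Tyk2 0.32, Tyk2 minus Jak2 −0.32, Ifnar1 minus Tyk2 −0.68 and Ifngr1 minus Ifnar2 −1.19. Leaving out 1 library in turn, Jak2 minus Tyk2 ran from −0.57 to 0.051, Tyk2 minus Jak2 from −0.051 to 0.57, Ifnar1 minus Tyk2 from −0.014 to 0.21, Ifnar2 minus Jak1 from −0.089 to 0.22 and Jak2 minus Ifngr1 from −0.12 to 0.17. With expected counts the isoform ratio was −0.57 for Ifnar1 and −1.30 for Ifngr1, beside a median of −1.20 over all genes tested. The Ifngr1 call was also lost with a minimum summed TPM of 1 (adjusted p = 0.0707) and the Tyk2 call with no minimum (adjusted p = 0.0749). Genes higher in the retained-intron class numbered 1810 from kallisto and 351 to 901 without 1 library, and those with more protein-coding RNA 2372 by expected counts and 473 to 849 without 1 library. Positive slopes numbered 220 with no filter and 30 from kallisto, and negative slopes 33 with RLE factors, 1128 with no filter and 20 from kallisto. The slope of Ifnar1 with no filter was −0.00043. Slopes without 1 library leave no residual degree of freedom and have no test. The causes were not tested. Depth limits Ifnb1 most, at 21 counts in replicate 2.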
